A study of Spirodela polyrhiza with 13 samples.

Results

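The dominant transcripts described here are the genes of the greater duckweed Spirodela polyrhiza that stayed at or above 700 FPKM in every one of 13 frond libraries. FPKM divides the fragments on a gene by the length of its model and by the library's total, so it is a level per length. Of 19623 listed genes, 88 met this floor, which left the cap of 300 genes unused. The choice used the levels in all 13 libraries, so the levels are a description and carry no test. The duckweed is a small floating plant whose leaf-like body is the frond, and the series title names plant hormones and aerenchyma, a tissue with gas-filled spaces. All libraries came from frond tissues of wild-type plants, with no treatment named, at 5 developmental stages, with 3 libraries each for stages 2, 3 and 4 and 2 libraries each for stages 5 and 6. Plants were kept in SH medium, renewed after 7 days, with 16 h of light at 23 °C and 8 h of darkness at 20 °C. Separate plants or cultures behind the libraries of 1 stage are not stated, and p-values here rest on a spread between libraries that may be technical.

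A small number of genes makes up a large part of the messenger RNA of most plant tissues. In green tissue the most abundant nuclear transcripts usually encode parts of the photosynthetic apparatus, such as chlorophyll-binding proteins and the small subunit of Rubisco, together with ribosomal proteins, translation factors and small stress-related proteins such as metallothioneins. Young, dividing tissue is known for high levels of ribosomal protein transcripts, and expanded green tissue for high levels of photosynthesis transcripts. The deposited table gives bare gene IDs, and no product, role or position was assigned to any of the 88 genes, nor could the frond label be checked against marker genes. They are therefore described by ID, coding length and level. Frond tissue holds several cell types, and fewer cells of a type cannot be told apart from less RNA per cell.

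Library totals, recovered from the FPKM values themselves, lay between 7708200 and 10910370 reads on genes. Behind the 88 genes stood 1058 to 83551 reads per gene and library, with a median of 6361. Counting error was therefore at most 3.07% of a value. The spread between libraries of a stage was larger. The median coefficient of variation over the 88 genes was 5.66%, 4.33%, 5.38%, 7.76% and 6.80% at stages 2, 3, 4, 5 and 6, and it exceeded the counting error for 79 to 85 of the 88 genes at each stage.

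The floor was reached by 220 to 282 genes in single libraries and by 402 genes in at least 1 library. The 88 genes were 42.9%, 44.2%, 44.0%, 36.7% and 44.9% of the genes above the floor in every library of stages 2, 3, 4, 5 and 6. The lowest library lay less than 10% above the floor for 30 of the 88 genes, and 24 other genes lay less than 10% below it. Just inside were Spipo0G0159200 (lowest library 705.2 FPKM), Spipo1G0011100 (705.8 FPKM) and Spipo14G0007100 (706.0 FPKM). Just outside were Spipo14G0035600 (699.5 FPKM), Spipo17G0006100 (692.9 FPKM) and Spipo22G0035800 (689.5 FPKM). Spipo22G0035800 had a mean of 2241 FPKM, above most of the 88 genes, and was held out by its low level at stage 2. The lowest library of the 88 genes was at stage 6 for 49 of them and at stage 2 for 26. Without stage 6 replicate 1 the floor was met by 106 genes, and without stage 2 replicate 3 by 97.

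High levels did not mean fixed ranks. Only 15 of the 88 genes were among the 100 highest genes of every library, and the lowest rank of any of them was 248. Among the 100 highest stage means, the 88 genes took 62 places at stage 2, 73 at stage 3, 71 at stage 4, 53 at stage 5 and 38 at stage 6. At the last stage, most of the 100 most abundant transcripts were thus genes that had been under the floor in at least 1 library.

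The 4 highest means over the 13 libraries belonged to IDs of which 3 lie close together in the table. In single libraries the order varied, and Spipo2G0105900, described below, was above Spipo23G0000500 in all libraries of stages 2 and 4. Spipo23G0000600, with a coding length of 159 bases, had the highest mean, 13794 FPKM over 13 libraries. It was at 12303, 12692 and 10528 FPKM at stage 2, 8780, 12257 and 12123 at stage 3, 12329, 10869 and 11528 at stage 4, 21298 and 17639 at stage 5, and 19728 and 17243 at stage 6. Its libraries of stages 5 and 6 all lay above those of stages 2 to 4, which overlapped each other. Spipo23G0000300 (153 bases) was at 8469, 6270 and 5702 FPKM at stage 2, 4949, 7666 and 8122 at stage 3, 7862, 6566 and 8650 at stage 4, 14223 and 11141 at stage 5, and 12746 and 10513 at stage 6. Spipo23G0000500 (171 bases) was at 4659, 4473 and 3809 FPKM at stage 2, 3283, 4351 and 4302 at stage 3, 4697, 3725 and 3877 at stage 4, 6943 and 6435 at stage 5, and 7452 and 6329 at stage 6. All 3 IDs were low in stage 3 replicate 1 and high at stages 5 and 6. From stage 4 to stage 5 they rose by 0.75, 0.72 and 0.71 on the log2 scale (SE 0.17, 0.23 and 0.16; adjusted p = 0.00394, 0.0227 and 0.00304, limma, in the order in which they are named here).

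The ratio of Spipo23G0000600 to Spipo23G0000500, direct neighbours in the table, lay between 2.63 and 3.07 in all 13 libraries, while each of them varied more than 2-fold. The ratio of Spipo23G0000500 to Spipo23G0000300 ranged more widely, from 0.448 to 0.713. Spipo23G0000400, listed between them and noted here after its values were seen, had 365 to 811 FPKM and missed the floor. Counting can divide or discard reads that match near-identical genes, and whether these short genes share reads was not tested. Together the 3 IDs held 3.24% ± 0.316 of the summed FPKM at stage 6 (SD, n = 2), against 2.09% ± 0.230 at stage 2 (n = 3). As a share of reads, which is not divided by length, they held only 0.590% ± 0.066 at stage 6 and 0.366% ± 0.043 at stage 2.

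The other ID at the top, Spipo14G0042700 (537 bases), was the longer-coding one and climbed through the series. It was at 8977, 9161 and 8052 FPKM at stage 2, 10998, 12213 and 12563 at stage 3, 13409, 13260 and 14167 at stage 4, 15890 and 15250 at stage 5, and 18956 and 17513 at stage 6. No library of a stage overlapped with any library of another stage. Of its 4 consecutive steps, the limma test called that to stage 3 (log2 change 0.45, SE 0.12, adjusted p = 0.0231) and did not call the later ones (adjusted p = 0.375, 0.238 and 0.292).

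Ranks 5 to 10 by mean level held 1 gene with a late loss and 5 that climbed. Spipo2G0105900 (297 bases) was at 4974, 4630 and 4102 FPKM at stage 2, 5462, 3686 and 3915 at stage 3, 5876, 5405 and 5235 at stage 4, 2278 and 3250 at stage 5, and 2368 and 3120 at stage 6. Both later stages lay below every earlier library. Its fall to stage 5 from stage 4 was the largest among the 88 genes at that step (log2 change -1.01, SE 0.19, adjusted p = 0.00115, limma). Spipo19G0027400 (804 bases) was at 1976, 1869 and 1758 FPKM at stage 2, 2359, 3298 and 2408 at stage 3, 2700, 3612 and 3626 at stage 4, 5504 and 6575 at stage 5, and 7451 and 7607 at stage 6. Its mean at stage 6 was 4.03 times that at stage 2, the widest range of stage means among the 88. Spipo32G0009500 (417 bases), Spipo26G0001200 (747 bases), Spipo9G0036800 (432 bases) and Spipo13G0011300 (444 bases) had means of 4659, 4463, 4528 and 4363 FPKM at stage 6, against 1639, 1189, 1309 and 1497 FPKM at stage 2. For each of these 4 genes, both libraries of stage 6 lay above all libraries of stages 2 to 5.

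**Figure D1:**
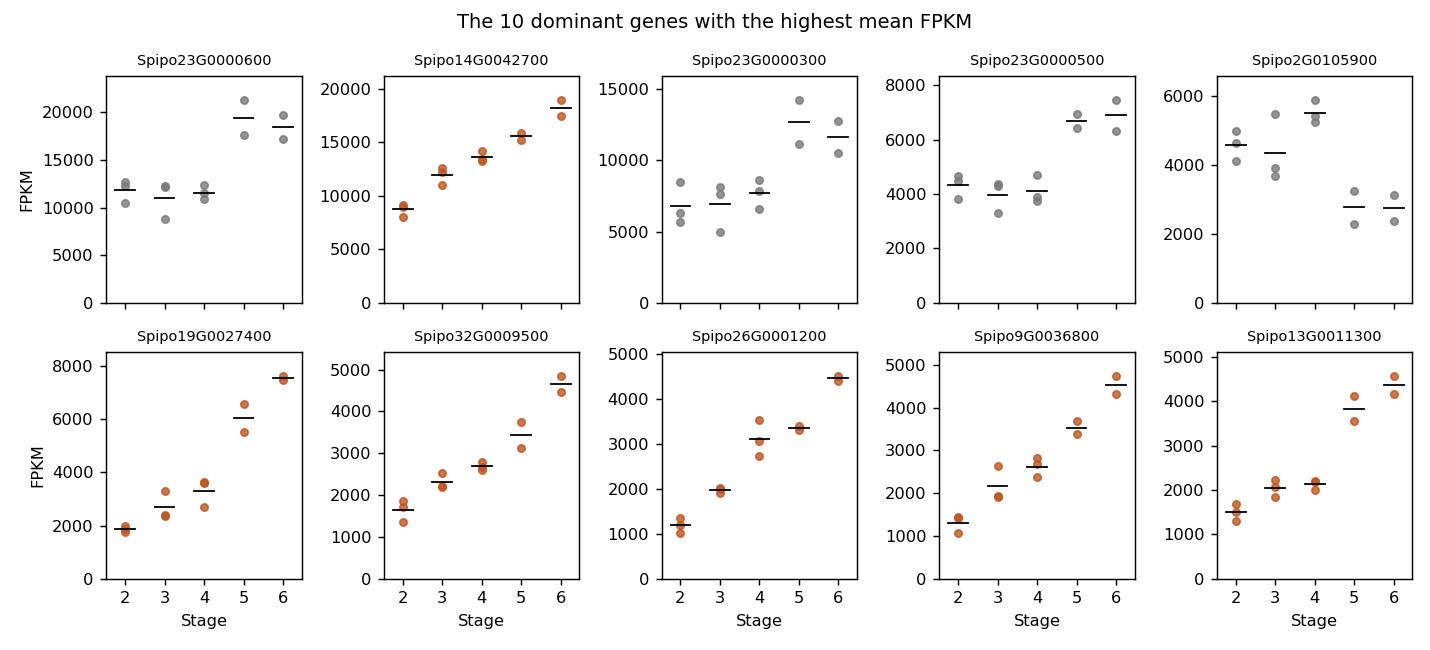
FPKM of the 10 genes with the highest mean level, by developmental stage (x axis); points are single libraries, black bars stage means, and each panel has its own FPKM axis from 0. Orange panels are genes whose stage means were higher at each later stage, such as Spipo19G0027400 with a mean of 7529 FPKM at stage 6, against 1868 FPKM at stage 2; grey panels are genes with another order.

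Between the first and the last stage, 79 of the 88 genes changed (89.8%), of which 28 rose and 51 fell at stage 6 relative to stage 2. Over all 15608 genes tested, 74.2% were called, 28.1% higher and 46.1% lower. The called share was 80.4% for another 2034 genes whose mean reached 100 FPKM. The median log2 change was -0.56 for the 88 genes and -0.28 for all genes tested. The test was limma on log2(FPKM + 1) over the whole table with Benjamini-Hochberg adjustment, and a gene was called at adjusted p under 0.05. The floor set no direction, but it bounds how far a gene near 700 FPKM could fall and stay in the group. With each library scaled by its median ratio, which moved the median change of all genes tested up by 0.30, 35 of the 88 genes rose and 42 fell, against background shares of 37.2% and 34.8%. There, 70 genes were called as deposited and after scaling, and none of these changed sign. Such scaling shifts all genes by nearly the same amount. A shift of this size left little room for a gene to be called in opposite directions, so the kept signs are no test.

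Across all 5 stages, the F test of limma called 83 of the 88 genes (94.3%), against 79.3% of all genes tested and 88.4% of the 2034 other abundant genes. Stage means were lower at each later stage for 36 of the 88 genes (40.9%) and higher at each later stage for 17 (19.3%), and 35 followed another order. Of the 15520 tested genes outside the group, 20.9% and 8.62% had these orders. Whether the smaller scatter of abundant genes makes such orders more frequent was not tested. After median ratio scaling, 11 of the 36 genes still had lower means at each later stage, while all 17 kept higher means at each later stage. The step to stage 5 from stage 4 lost its direction in the falling group, with a median log2 change of 0.03 after scaling, against -0.17 as deposited. Quantile normalization bore on the climbing genes instead. Their median log2 change was then 0.04 at the step to stage 5, against 0.56 as deposited, and 0.05 at the step to stage 6, against 0.36. At the step to stage 5 it called 4 of the 17 higher and 1 lower.

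**Figure D2:**
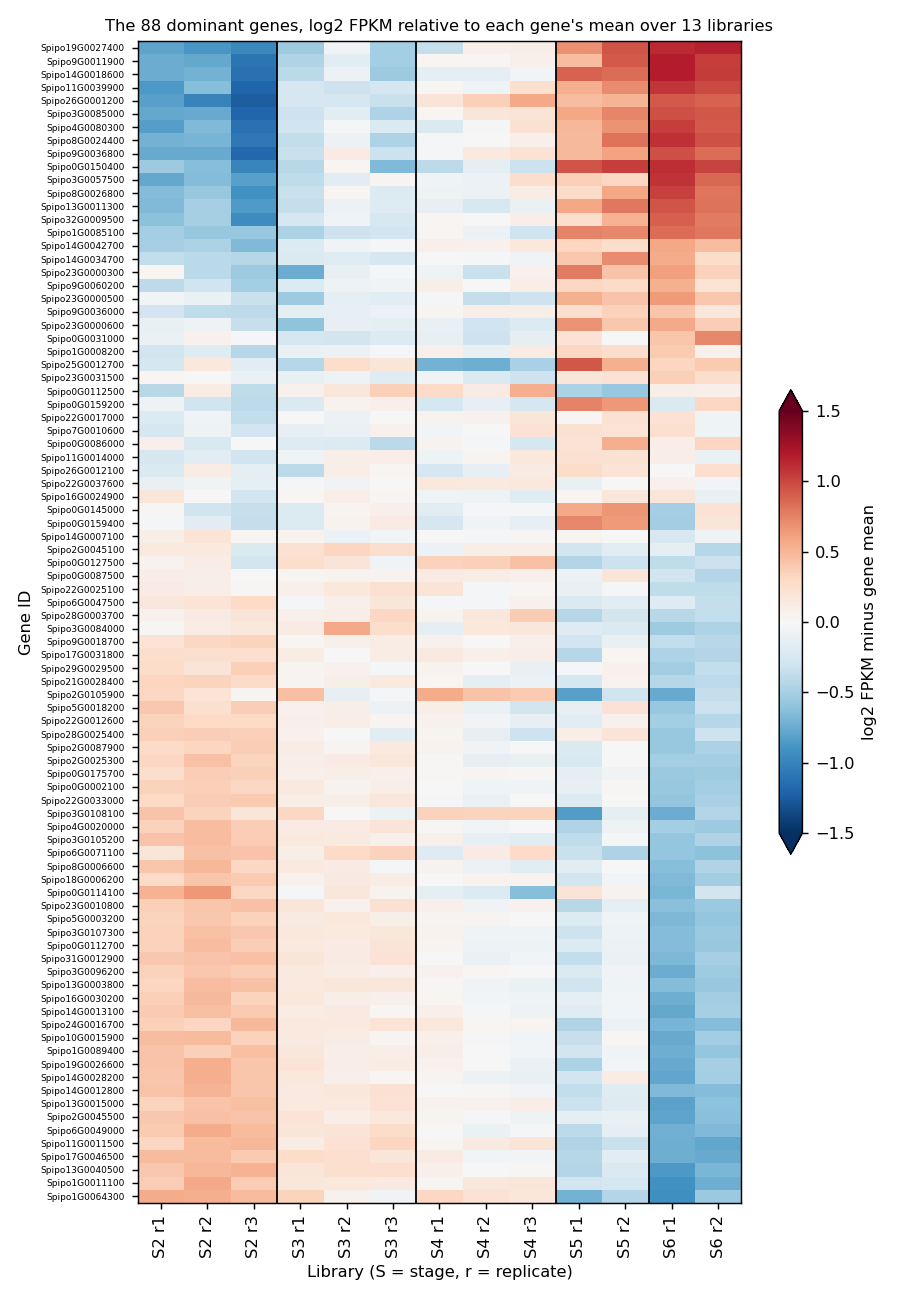
Levels of all 88 genes (rows, ordered by their change from stage 2 to stage 6) in all 13 libraries (columns, S = stage, r = replicate), as log2 FPKM minus the gene's own mean; red is above and blue below that mean, and darker is farther from it. The upper rows climb with stage, by 2.01 on the log2 scale at most, and the lower rows decline.

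The 17 climbing genes all rose at stage 6 relative to stage 2, with log2 changes from 0.77 to 2.01 and a median of 1.80. At least 2-fold rises were called for 16 of them and for no other of the 88 genes. That is 16 of 88, against 16.9% of all genes tested and 338 of the 2034 other abundant genes. With quantile normalization the changes of the 17 ran from 0.12 to 1.34 with a median of 1.10, and 16 of the 17 were called. Since they were picked by the order of their means, the direction is part of that choice. Relative to stage 2, the median gene of the 17 stood at 1.43 times at stage 3, 1.73 at stage 4, 2.73 at stage 5 and 3.46 at stage 6. The largest step was that to stage 3 for 9 genes and that to stage 5 for 7, and for none was it the step to stage 4. Which step was largest depended on scaling. Median log2 changes at the steps to stages 3 and 5 were 0.50 and 0.75 after median ratio scaling, and 0.73 and 0.04 with quantile normalization. Spipo9G0011900 (633 bases) was at 910, 893 and 710 FPKM at stage 2, 1112, 1347 and 1063 at stage 3, 1549, 1551 and 1598 at stage 4, 2090 and 2884 at stage 5, and 3446 and 3128 at stage 6. It rose by 1.98 on the log2 scale between the end stages (SE 0.15, adjusted p = 2.05e-07, limma), and no library of a stage overlapped with the next stage. Spipo14G0018600 (438 bases) and Spipo11G0039900 (486 bases) had means of 3425 ± 214 and 3347 ± 140 FPKM at stage 6 (SD, n = 2), against 881 ± 132 and 888 ± 170 FPKM at stage 2 (SD, n = 3). Both rose in every library of stage 6 relative to every library of stage 2, with log2 changes of 1.97 and 1.93 (adjusted p = 1.47e-07 and 1.75e-07, limma).

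Timing differed among the climbing genes. Spipo26G0001200 gained mainly in the first steps, with 1356, 1192 and 1017 FPKM at stage 2, 2012, 2000 and 1900 at stage 3, 2735, 3077 and 3541 at stage 4, 3306 and 3402 at stage 5, and 4511 and 4414 at stage 6. Spipo0G0150400 (351 bases) gained mainly in one step, with 1480, 1387 and 1090 FPKM at stage 2, 1627, 2199 and 1362 at stage 3, 1642, 1975 and 1723 at stage 4, 4151 and 4429 at stage 5, and 4642 and 4350 at stage 6. Its rise at stage 5 relative to stage 4 was 1.27 on the log2 scale (SE 0.18, adjusted p = 0.000158, limma), or 0.62 with quantile normalization (adjusted p = 0.0321), while the steps to stages 3, 4 and 6 were not called. Spipo3G0057500 (1275 bases) gained in the first and in the last step. It rose by 0.58 on the log2 scale at stage 3 relative to stage 2 (SE 0.13, adjusted p = 0.0124, limma), was not called at the steps to stages 4 and 5, and had 3775 and 3227 FPKM at stage 6, against 2273 and 2205 FPKM at stage 5. This last rise of 0.64 on the log2 scale was the largest of the 88 genes at this step (SE 0.16, adjusted p = 0.0212, limma). It lost the call when only the libraries of these stages were fitted (adjusted p = 0.0909), without stage 5 replicate 1 or 2 (0.0746 and 0.083) and without stage 6 replicate 1 (0.149), with log2 changes of 0.53 to 0.66. With quantile normalization the change was 0.23 (adjusted p = 0.389, limma).

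The 36 declining genes spanned a narrower range of changes, but the floor bounds how far they could fall. All fell at stage 6 relative to stage 2, with log2 changes from -1.25 to -0.50, a median of -1.01 and quartiles of -1.09 and -0.91. Here too the direction is part of how they were picked, and 35 of the 36 also fell after median ratio scaling, with a median of -0.68. Relative to stage 2, the median gene stood at 0.842 times at stage 3, 0.759 at stage 4, 0.679 at stage 5 and 0.498 at stage 6. The largest step was that to stage 6 for 32 of the 36 genes and that to stage 5 for the other 4. Quantile normalization turned this order, with a median log2 change of -0.44 at the step to stage 5 (32 called lower) and -0.25 at the step to stage 6 (3 called lower). Spipo1G0011100 (531 bases) had the largest fall of the 36 and was at 1705, 1952 and 1715 FPKM at stage 2, 1489, 1474 and 1451 at stage 3, 1354, 1482 and 1502 at stage 4, 1093 and 1102 at stage 5, and 706 and 797 at stage 6. Between the end stages it fell by 1.25 on the log2 scale (SE 0.10, adjusted p = 2.35e-07, limma), and its stages overlapped only between 3 and 4. Spipo0G0175700 (567 bases) repeated most closely between libraries, with a mean coefficient of variation within stages of 2.28%. It was at 1852, 2000 and 1982 FPKM at stage 2, 1633, 1641 and 1626 at stage 3, 1561, 1592 and 1568 at stage 4, 1392 and 1494 at stage 5, and 1054 and 1066 at stage 6. Each of its stages lay below every library of the stage before.

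The largest fall of any of the 88 genes between the end stages belonged to one with an uneven course. Spipo1G0064300 (522 bases) was at 2624, 2599 and 2480 FPKM at stage 2, 2234, 1861 and 1712 at stage 3, 2210, 2074 and 2008 at stage 4, 1084 and 1316 at stage 5, and 940 and 1206 at stage 6. Stages 3 and 4 overlapped, as did stages 5 and 6, while stage 3 lay below stage 2 and stage 5 below stage 4 in every library. It fell by 1.27 on the log2 scale at stage 6 relative to stage 2 (SE 0.14, adjusted p = 3.12e-06, limma) and by 0.81 at stage 5 relative to stage 4 (SE 0.14, adjusted p = 0.000542, limma).

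**Figure D3:**
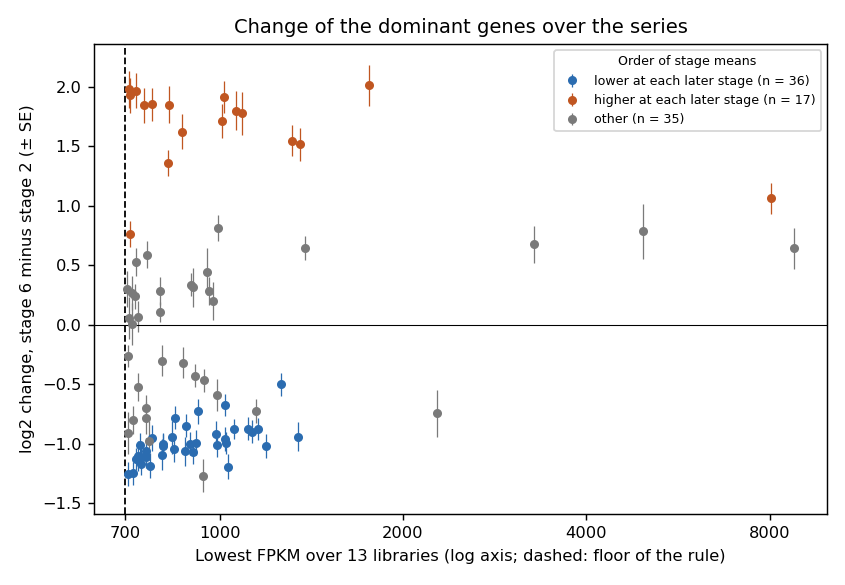
Change of each of the 88 genes on the log2(FPKM + 1) scale, stage 6 minus stage 2 (y axis, with SE from limma), against its lowest FPKM over the 13 libraries (x axis, log scale); the dashed line is the floor of 700 FPKM. Orange and blue points are the 17 climbing and 36 declining genes, and of the declining ones all have their lowest library below 1400 FPKM.

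The 88 genes together held a larger share of the transcriptome at stages 5 and 6 than before, and its makeup turned over. They held 14.5% ± 0.421 of the summed FPKM at stage 2, 14.6% ± 0.471 and 15.1% ± 0.155 at stages 3 and 4 (SD, n = 3 each), and 16.7% ± 0.120 and 16.4% ± 0.228 at stages 5 and 6 (SD, n = 2 each). Every library of stages 5 and 6, at 16.2% to 16.8%, lay above every library of stages 2 to 4, the highest of which was at 15.2%. As a share of reads they held 7.46% ± 0.263, 7.57% ± 0.262, 7.85% ± 0.186, 8.97% ± 0.412 and 9.10% ± 0.172. Within these totals, the 17 climbing genes had 2.43% ± 0.206, 3.50% ± 0.255, 4.17% ± 0.230, 5.58% ± 0.199 and 6.89% ± 0.258 of the summed FPKM at stages 2, 3, 4, 5 and 6. The 36 declining genes had 6.17% ± 0.138, 5.25% ± 0.069, 4.79% ± 0.084, 4.00% ± 0.327 and 3.00% ± 0.180 at the same stages. The remaining 35 genes held between 5.87% and 7.14% at every stage. With the floor applied after median ratio scaling, the genes above it gained less of the summed FPKM from stage 2 to stage 5. Those shares are given in the closing section.

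With the climbing and declining genes held fixed, the ratio of their sums within a library does not change when that library is scaled by 1 factor. Quantile normalization can change it, and which genes fell into each group depended on scaling, as described above. The summed FPKM of the 17 climbing genes over that of the 36 declining genes was 0.424, 0.410 and 0.349 in the libraries of stage 2, 0.620, 0.732 and 0.651 at stage 3, 0.808, 0.874 and 0.934 at stage 4, 1.44 and 1.35 at stage 5, and 2.46 and 2.14 at stage 6. No 2 stages overlapped. The genes were grouped by these same values, so the separation is a description and was not tested.

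**Figure D4:**
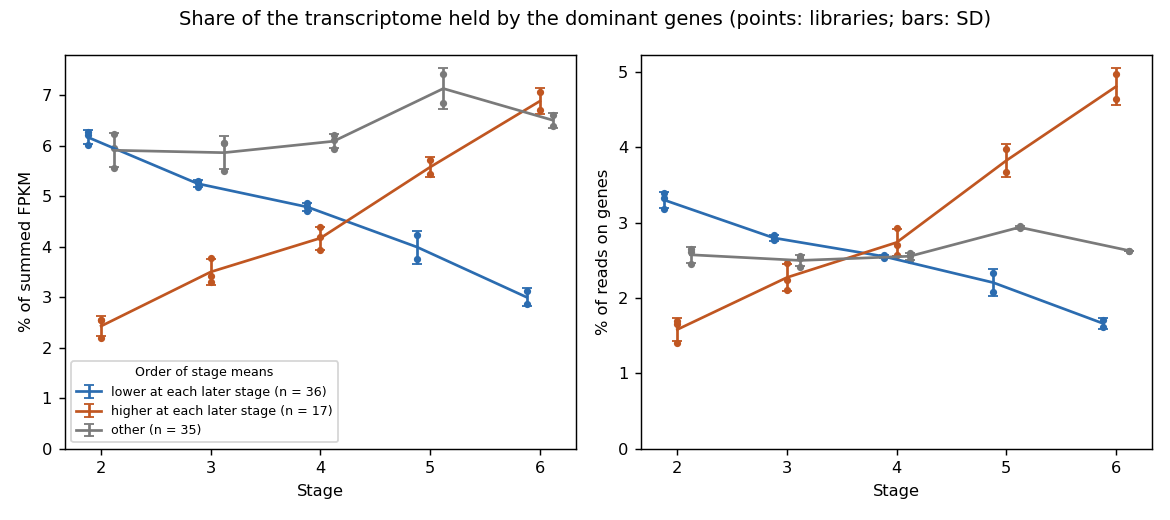
Share of the summed FPKM (left) and of the reads on genes (right) held by the 36 declining (blue), 17 climbing (orange) and 35 other (grey) genes at stages 2 to 6; points are libraries, lines join stage means and bars are SD. The climbing genes hold 6.89% of the summed FPKM at stage 6, against 2.43% at stage 2, and the declining genes 3.00% at stage 6, against 6.17% at stage 2.

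At stage 3 relative to stage 2, 25 of the 88 genes changed (28.4%), 14 higher and 11 lower, against background shares of 15.4% called, 8.81% higher and 6.64% lower. Nearly the same share, 28.5%, was called among the 2034 other abundant genes. The 14 that rose were all among the 17 climbing genes, which were picked in part by a higher mean at this step. Largest was the rise of Spipo26G0001200 (log2 change 0.74, SE 0.12, adjusted p = 0.00281, limma), followed by Spipo9G0036800 (0.72, SE 0.15, adjusted p = 0.00949, limma), with 1913, 2644 and 1928 FPKM at stage 3, against 1434, 1429 and 1065 FPKM at stage 2. The largest called falls were those of Spipo1G0064300, named above (log2 change -0.42, SE 0.12, adjusted p = 0.0402, limma), and Spipo28G0025400 (813 bases; -0.39, SE 0.11, adjusted p = 0.0297, limma), with 1119, 1078 and 959 FPKM at stage 3, against 1372, 1379 and 1372 FPKM at stage 2. Spipo0G0114100 had a log2 change of -0.43 that was not called (adjusted p = 0.0644, limma). When any one of stage 2 replicates 1, 2 and 3 or stage 3 replicates 2 and 3 was left out, both called falls kept log2 changes between -0.44 and -0.32 and missed the threshold, with adjusted p between 0.0666 and 0.145 (limma). That of Spipo1G0064300 also missed it with quantile normalization (-0.33, adjusted p = 0.125), with no filter (0.0614) and without stage 4 replicate 2 (0.0578). The count of 25 became 11, 12 or 5 when replicate 1, 2 or 3 of stage 2 was left out. It became 5 or 9 when replicate 2 or 3 of stage 3 was left out, and 14 when replicate 2 of stage 4 was. Those called under these conditions were nearly all higher at stage 3. Quantile normalization gave 20 genes higher and 1 lower.

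At stage 4 relative to stage 3, only Spipo26G0001200 changed, which is 1.14% of the 88 genes, against 3% of all genes tested (1.91% higher and 1.1% lower). It rose by 0.65 on the log2 scale (SE 0.12, adjusted p = 0.0134, limma) and lost the call without stage 3 replicate 3 (adjusted p = 0.0528) or stage 4 replicate 3 (0.0717), with log2 changes of 0.63 and 0.56, and with quantile normalization (0.41, adjusted p = 0.0611). None of the 88 genes was called lower by the main fit of limma, on log2(FPKM + 1), or by its voom fit. In the main fit, 11 were lower at an unadjusted p under 0.05. Library weights called 18 genes at this step, 6 higher and 12 lower. Quantile normalization called 1 gene lower, as did the fit without stage 3 replicate 1.

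At stage 5 relative to stage 4, 40 of the 88 genes changed (45.5%), about the same share as among all genes tested (45.6%). Of these, 24 rose and 16 fell, against background shares of 14.9% higher and 30.7% lower. Of the 2034 other abundant genes 52.5% were called, 467 higher and 600 lower. The balance among the 88 genes depended on scaling and on single libraries. It was 35 higher and 7 lower after median ratio scaling (background 21.6% and 18.4%), 10 and 46 after quantile normalization, 21 and 9 without stage 5 replicate 1, and 14 and 22 without stage 5 replicate 2. The change was at least 2-fold for 3 of the 88 genes, against 11.3% of all genes tested. These were Spipo25G0012700 and Spipo0G0150400, which rose, and Spipo2G0105900, which fell. Of the 2034 other abundant genes, 118 rose and 79 fell at least 2-fold. The floor bounds how far the 88 genes could fall. Spipo25G0012700 (594 bases) was at 3031 and 2297 FPKM at stage 5, against 972, 951 and 1133 FPKM at stage 4, where it was lowest in the series. Its rise of 1.38 on the log2 scale was the largest of the 88 (SE 0.20, adjusted p = 0.000166, limma).

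At stage 6 relative to stage 5, 37 of the 88 genes changed (42.0%), 3 higher and 34 lower, against background shares of 12.6% called, 5.35% higher and 7.2% lower. Of the 2034 other abundant genes 22.7% were called, 98 higher and 364 lower. The 34 that fell held 26 of the 36 declining genes, which were picked in part by a lower mean at this step. This count rested on 2 of the 4 libraries compared: it was 2 without stage 5 replicate 2 and 2 without stage 6 replicate 1, against 31 without either of the other libraries. When limma was fitted to the 4 libraries alone, no gene of the 88 was called, with 39 at an unadjusted p under 0.05. After median ratio scaling 23 were called (background 12.2%) and after quantile normalization 7, and the voom fit called 38.

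The highest stage mean was at stage 5 for 15 of the 88 genes. Spipo25G0012700, named above, was among them, with 1984 and 2072 FPKM at stage 6. Another 3, described here, had uneven libraries at stage 6. Spipo0G0159400 (408 bases) was at 1016, 926 and 807 FPKM at stage 2, 900, 1068 and 1124 at stage 3, 868, 992 and 947 at stage 4, 1708 and 1604 at stage 5, and 718 and 1176 at stage 6. Spipo0G0145000 (657 bases) was at 1023, 822 and 798 FPKM at stage 2, 876, 1040 and 1071 at stage 3, 900, 993 and 1001 at stage 4, 1506 and 1600 at stage 5, and 709 and 1172 at stage 6. Spipo0G0159200 (399 bases), 2 places before Spipo0G0159400 in the table, was at 875, 754 and 705 FPKM at stage 2, 793, 960 and 975 at stage 3, 770, 848 and 776 at stage 4, 1549 and 1447 at stage 5, and 792 and 1150 at stage 6. In all 3, both libraries of stage 5 lay above every other library, and stage 6 replicate 1 lay well below stage 6 replicate 2. The ratio of Spipo0G0145000 to Spipo0G0159400 stayed between 0.882 and 1.06 in all 13 libraries. The rises at stage 5 relative to stage 4 were 0.82, 0.69 and 0.91 on the log2 scale (adjusted p = 0.0023, 0.00748 and 0.000458, limma, in the order given). The falls of Spipo0G0159400 and Spipo0G0145000 at stage 6 relative to stage 5 (-0.85 and -0.77, adjusted p = 0.017 and 0.0256, limma) were the largest of the 88 genes at that step. Both calls were lost without stage 6 replicate 1, with log2 changes of -0.49 and -0.40 (adjusted p = 0.136 and 0.219, limma), without either stage 5 library (adjusted p from 0.0585 to 0.106) and when only these stages were fitted (0.0766 and 0.0962).

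One gene dipped where these peaked. Spipo0G0112500 (177 bases) was at 1010, 1446 and 1029 FPKM at stage 2, 1405, 1515 and 1728 at stage 3, 1637, 1466 and 1966 at stage 4, 967 and 905 at stage 5, and 1432 and 1418 at stage 6. It fell at stage 5 relative to stage 4 (log2 change -0.84, SE 0.16, adjusted p = 0.00121, limma) and rose at stage 6 relative to stage 5 (0.61, SE 0.18, adjusted p = 0.0419, limma). The later rise was not called without any one of the 4 libraries of stages 5 and 6 (adjusted p from 0.0906 to 0.174), in a fit of these stages alone (0.065), with library weights (0.0727), with no filter (0.0573), or without stage 3 replicate 2 (0.0579) or stage 4 replicate 1 (0.0504), and its log2 change was 0.56 to 0.65 under all of these.

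Only 5 of the 88 genes were not called in any-stage testing. These were Spipo16G0024900, Spipo22G0037600, Spipo14G0007100, Spipo26G0012100 and Spipo22G0017000, with ratios of the highest to the lowest stage mean of 1.16, 1.20, 1.20, 1.25 and 1.26 and adjusted p from 0.0526 to 0.528 (limma F test). Spipo16G0024900 (486 bases) was at 1012, 897 and 734 FPKM at stage 2, 911, 960 and 912 at stage 3, 853, 845 and 789 at stage 4, 916 and 1003 at stage 5, and 1016 and 827 at stage 6. Its libraries of stages 2 and 6 spread as widely as its whole course. Spipo22G0037600 (765 bases) was tighter, with 806, 839 and 797 FPKM at stage 2, 858, 842 and 871 at stage 3, 977, 966 and 979 at stage 4, 810 and 879 at stage 5, and 910 and 849 at stage 6. Its stage 4 libraries were the highest of the series, and its adjusted p of 0.0526 lay just above the threshold. Spipo14G0007100 (825 bases) and Spipo26G0012100 (222 bases) ranged from 706 to 963 FPKM and from 976 to 1548 FPKM over the 13 libraries. A p that misses the threshold does not show that a level stayed the same.

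**Figure D5:**
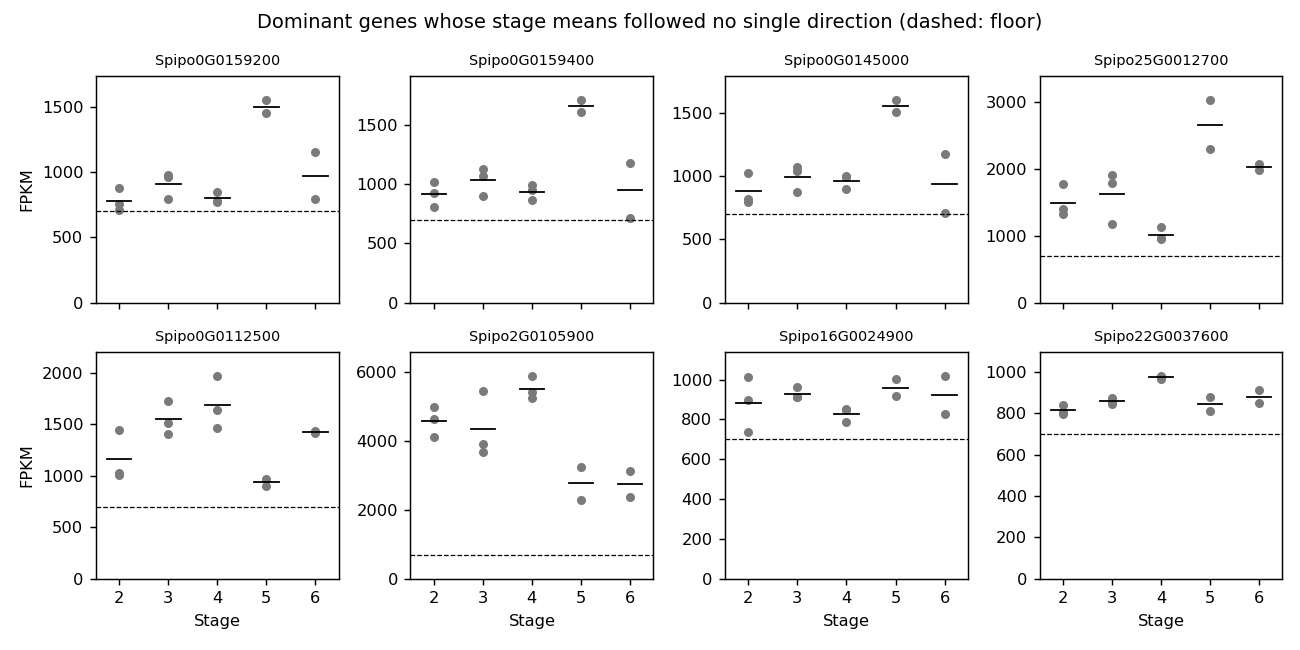
FPKM by stage of 8 genes whose stage means followed no single direction; points are libraries, black bars stage means, the dashed line the floor of 700 FPKM, and each panel has its own axis from 0. The first 3 panels peak at stage 5 (means of 1498, 1656 and 1553 FPKM), Spipo0G0112500 dips there (936 FPKM), and the last 2 panels stay within 734 to 1016 FPKM.

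Libraries of a stage also differed in a shared way. In stage 2 replicate 3, none of the 17 climbing genes was above its stage mean, with a median deviation of -0.23 on the log2 scale, against 16 of 17 in each of the other stage 2 libraries. In stage 3 replicate 2, 16 of the 17 were above the stage mean (median 0.15). The declining genes moved together at stage 5, where 35 of 36 were higher in replicate 2 than in replicate 1 and the median deviation was 0.11. At stage 6, 29 of 36 declining genes were above the stage mean in replicate 2 and 16 of 17 climbing genes in replicate 1. The median deviation of all genes tested lay between -0.03 and 0.03 in every library. The part of these library differences in the calls above was not tested beyond leaving out single libraries.

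The dominant genes were short. Their coding lengths, implied by the FPKM values, ran from 153 to 1947 bases with a median of 463.5, against a median of 1017 bases for all genes tested, and 72.7% were at most 600 bases long, against 24.9%. The 2034 other abundant genes lay between, with a median of 732 bases and 38.8% of at most 600 bases. Length is the divisor of FPKM and thus part of the choice, so no test was made. Ranked by their share of reads instead, only 34 of the 88 genes were among the 88 genes with most reads. The declining genes had a median of 459 bases and the climbing genes 537 bases. The longest was Spipo6G0071100 with 1947 bases, one of the declining genes by stage means, with 846 FPKM at stage 6, against 1636 FPKM at stage 2. The number after Spipo in the ID took 28 of the 33 values in the table, so the 88 IDs were spread widely, and apart from Spipo23G0000500 and Spipo23G0000600 none were direct neighbours.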

How the data were processed

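Messenger RNA of 13 frond libraries was sequenced from a stranded kit, per the labels' protocols. The authors deposited 1 table of FPKM values, 1 column per library. The submitters' processing notes name HTSeq 0.11.3, HISAT2 2.2.1, Picard 2.25.5, CASAVA 1.8.2 and Trimmomatic 0.39, without roles. Not given in the sources used here were genome build, annotation, strand setting and any further scaling. Without strand, overlapping antisense genes cannot be told apart. FPKM is relative to the library total, so gains of some genes lower others.

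The 88 genes were picked by the floor of 700 FPKM. Members, lists and naming rules were chosen with earlier results of these data known. Gene lists by product name could not be applied to bare IDs. Genes named are the 10 highest means, the 2 largest called rises and falls per comparison without overlapping libraries, the 4 narrowest and 4 widest ranges of stage means, the 3 nearest the floor on either side, direct neighbours by ID, and the 2 largest and smallest within-stage variations. Others were named after their values were seen.

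Whole reads were recovered from the steps of the FPKM values, within 0.001 reads for all 17445 genes with any value. Implied lengths were multiples of 3 for 100% of 9765 genes with over 2000 reads, as for coding sequence. limma 3.58.1 (R 4.3.3) was fitted to log2(FPKM + 1) for the 15608 genes that reached 1 FPKM in 2 or more libraries. The 13 libraries shared 1 fit with 8 residual degrees of freedom and a mean-variance trend, with p-values adjusted by Benjamini-Hochberg over the whole table. The steps were tested on simulated reads. Levels are mean ± SD. Folds in words are ratios of mean FPKM, while counts of changes of at least 2-fold use the log2 scale. Alternatives covered pseudocounts, filters, scalings, library weights, a replicate block, fits of single pairs of stages, recovered reads and left-out libraries.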

Additional observations from a re-analysis of the deposited data

How the results depend on the processing

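A floor of 500 FPKM gave 184 genes and one of 1000 FPKM gave 25, by construction. A floor after median ratio scaling gave 99 genes, 79 of them shared. The 99 genes held 16.4%, 15.9%, 16.1% and 17.1% of the summed FPKM at stages 2, 3, 4 and 5. Their share at stage 6 is not given here. The share of reads held by the 88 genes, another measure of another set, was 7.46%, 7.57%, 7.85%, 8.97% and 9.10% at stages 2 to 6. Counts of called genes across all stages (80 to 85 of 88) stayed within 1.5 times under every alternative run, as did those for stage 6 against stage 2 and stage 5 against stage 4 except with a 2-fold minimum. With that minimum the counts were 0, 0, 3 and 0 for the steps to stages 3, 4, 5 and 6 and 36 for stage 6 against stage 2, by construction fewer (limma; without the minimum 60, 19, 48 and 52 genes had an unadjusted p under 0.05 at the 4 steps). For stage 3 against stage 2, 13 genes were called with no filter and 57 with library weights. For stage 4 against stage 3 it was 2 with TMM-like scaling, 4 with quantile normalization and 18 with library weights. For stage 6 against stage 5 it was 23 with median ratio scaling, 7 with quantile normalization and 0 when only these stages were fitted. The median change of the 88 genes moved with median ratio scaling to 0.00, 0.16 and -0.18 for the steps to stages 4, 5 and 6 and -0.23 for stage 6 against stage 2, and with TMM-like scaling to 0.02, 0.16 and -0.26 for the steps to stages 4 and 5 and the end stages. With quantile normalization it was -0.29 for the step to stage 5 and -0.15 for that to stage 6. Apart from construction, the cause was not tested.

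With 1 library left out, 5 to 33 genes were called for stage 3 against stage 2, 0 to 2 for stage 4 against stage 3 (7 to 24 at an unadjusted p under 0.05), 30 to 40 for stage 5 against stage 4, 2 to 36 for stage 6 against stage 5 and 73 to 78 for stage 6 against stage 2. At stages 5 and 6 the single library then left is taken to vary as the other stages do. Median changes then lay between -0.13 and 0.07 for the step to stage 5 and between -0.35 and -0.19 for the step to stage 6. The 17 named changes gave 408 values under the alternatives, of which 360 kept sign and call, 48 missed the threshold and none reversed. These changes were picked as the largest called ones without overlapping libraries, and the alternatives refit the same libraries. That none reversed is therefore no independent support.

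Same-numbered libraries of different stages had deviations that correlated by -0.243 to 0.374, above 0.1 in 7 of 23 pairs, and the labels give no tie between them, so the numbers were not treated as pairing. Under a replicate block, 23, 1, 36 and 37 of the 88 genes were called in the 4 consecutive steps, 78 for stage 6 against stage 2 and 83 across stages, which moved no count by over 1.5 times.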
